A study of Mus musculus with 22 samples.

Results

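Control tumour cells that had lost surface EPCAM by day 8 were compared with the EPCAM+ cells of the same line at day 0. The comparison took 4 samples of 22 in the series, 2 day 8 EPCAM- samples and 2 day 0 EPCAM+ samples, chosen by their labelled line, day and sort. They can be paired by sample number, but the main fit did not use that number. A fit with the number as a block is given as an alternative. All came from primary mouse cell lines grown from a primary tumour that carried Lgr5CreER, floxed p53 (p53fl/fl) and a Rosa26-YFP+/+ reporter, and living single mCherry+ YFP+ cells were sorted by FACS. In this genotype the Cre recombinase is driven from Lgr5, a gene of hair follicle and intestinal stem cells. Of the other libraries, 2 are control EPCAM+ cells of day 8 and 16 belong to 4 CRISPR/Cas9 knockout lines (Pitx1, Klf5, Nfatc1 and Creb3l1), 8 of them EPCAM-. No treatment beginning at day 0 is given in the labels, and no EPCAM- sample of that day is analysed here. A sort and 8 days of culture therefore separate the compared groups together, and this contrast alone cannot tell them apart. The day 8 EPCAM+ values of the control line are given beside some of the results for that reason. A change named without them covers sort and time together. The p-values rest on the spread between the 2 samples within each of the 11 groups of the series, not on the 4 compared samples alone. The labels do not say whether the 2 samples of a group were separate cultures, so what that spread covers is not known.

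EPCAM is a cell adhesion protein of epithelial cells and a common surface marker of carcinoma cells. In the epithelial-mesenchymal transition, cells give up junctions and apical-basal polarity, take up a vimentin cytoskeleton and become more motile. Transcription factors of the SNAI, ZEB and TWIST families are known to repress epithelial genes in this process, and the ZEB and SNAI proteins bind E-box sequences through zinc fingers. The OVOL and GRHL factors and the ESRP splicing proteins are known for upholding the epithelial state.

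Values are deposited units, in which each library sums to about the same total; 1 read was worth 2.29 to 3.05 units in the 4 samples. They held 6554817 to 8722952 reads in genes and 20473 to 22455 genes above 0, and mitochondrially encoded genes took 1.76 to 2.73% of each. Of 19569 genes tested with limma (adjusted p below 0.05 over all of them), 393 were called (2.01%): 134 rose (0.685%) and 259 fell (1.32%). The median log2 fold change was 0.04 over all genes tested, 2.37 over the genes that rose and -2.28 over those that fell. With genes at 0 in 1 group set to the bound that 3 reads per library allow, those last medians were 1.52 and -2.20. Summed over the genes that fell, the group mean went from 349430 units at day 0 to 121979 in day 8 EPCAM- cells. Summed over the genes that rose, it went from 77372 to 242614 units. The sums are descriptions, since the same values chose the genes. Below, list members are also counted at an unadjusted p below 0.05 and by the sign of their log2 fold change. The shares of all genes tested that meet these were not taken for this contrast, so such counts have no background beside them.

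The number of calls depended on single libraries and on the sample number. With the sample number in the model as a block, since it marks a batch in the labels, 843 genes were called, 380 of them rises. Without day 0 replicate 2 the count was 98, without day 8 EPCAM- replicate 1 it was 199, without day 8 EPCAM- replicate 2 it was 185, and without day 0 replicate 1 it was 304. Called in the blocked fit, in a voom fit of the recovered reads and in each of the 4 fits without 1 library were 74 genes, of which 8 rose and 66 fell. They are named robust calls from here on; fits of only the 2 groups compared were not part of that definition. 

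**Figure D1:**
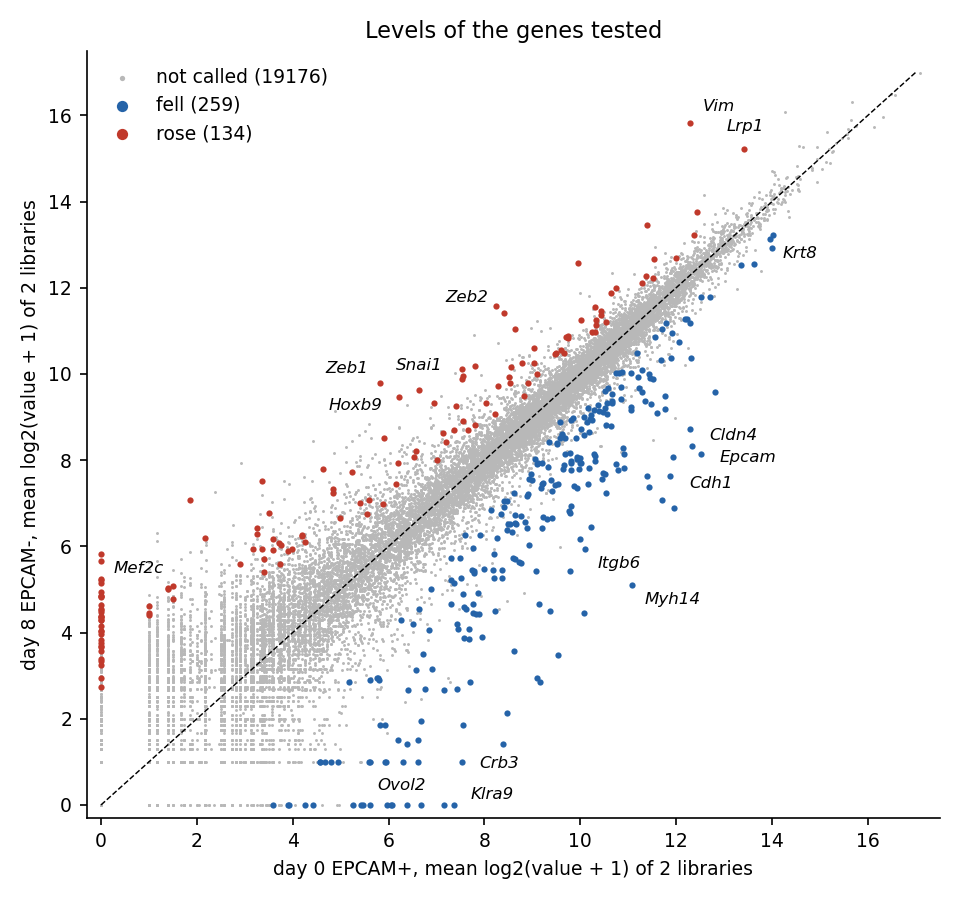
Mean log2(value + 1) of each of the 19569 genes tested in day 0 EPCAM+ cells (horizontal) and day 8 EPCAM- cells (vertical), 2 libraries each. Genes that rose are red (134), genes that fell are blue (259), and the dashed line marks equal levels. Cdh1, Epcam and Itgb6 lie far below the line, and Vim is the highest of the genes that rose.

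Epcam and the marker genes Cdh1, Vim and Zeb1 were named whatever their result. The sample titles give line, day, sort and sample number, and no epithelial or mesenchymal state. Epcam, the gene behind the sort and so no finding, held 5816 and 5917 units at day 0 and 180 and 441 in day 8 EPCAM- cells. Cdh1 encodes E-cadherin, the adhesion protein of epithelial adherens junctions, and lies at chr8:106603351-106670246 (GRCm38). It held 3431 and 4144 units at day 0 against 251 and 156 in day 8 EPCAM- cells. It fell 18.6-fold (log2 -4.25, standard error 0.32, limma adjusted p 7.36e-06), and no library of one group reached the other. In bulk samples fewer cells of a type and less RNA per cell cannot be told apart, so this fall does not say how many cells still held E-cadherin RNA. Vim encodes the intermediate filament protein vimentin and lies at chr2:13573927-13582826. It held 10710 and 2332 units at day 0 and 67534 and 49071 in day 8 EPCAM- cells. The 2 day 0 samples were far apart, yet both were well under the EPCAM- samples. Vim rose 8.94-fold (log2 3.53, standard error 0.47, adjusted p 0.000983), a robust call, though the adjusted p was 0.0746 with only the 2 groups compared and 0.184 with those groups and the block.

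Zeb1, an E-box repressor of epithelial genes, was low at day 0 (121 and 25 units) and higher in day 8 EPCAM- cells (1183 and 654 units). It rose 12.6-fold (log2 3.97, standard error 0.90, limma adjusted p 0.0362). This call was not robust: the adjusted p was 7.13e-05 with the block, 0.0616 with voom, 0.287 without day 0 replicate 2, and 0.175 and 0.109 without day 8 EPCAM- replicate 1 and 2. In day 8 EPCAM+ cells Zeb1 was at 61 and 55 units and Vim at 9875 and 9745, while Cdh1 was at 2903 and 2512 units. The EPCAM- samples stood apart from both EPCAM+ groups for these genes and Epcam.

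**Figure D2:**
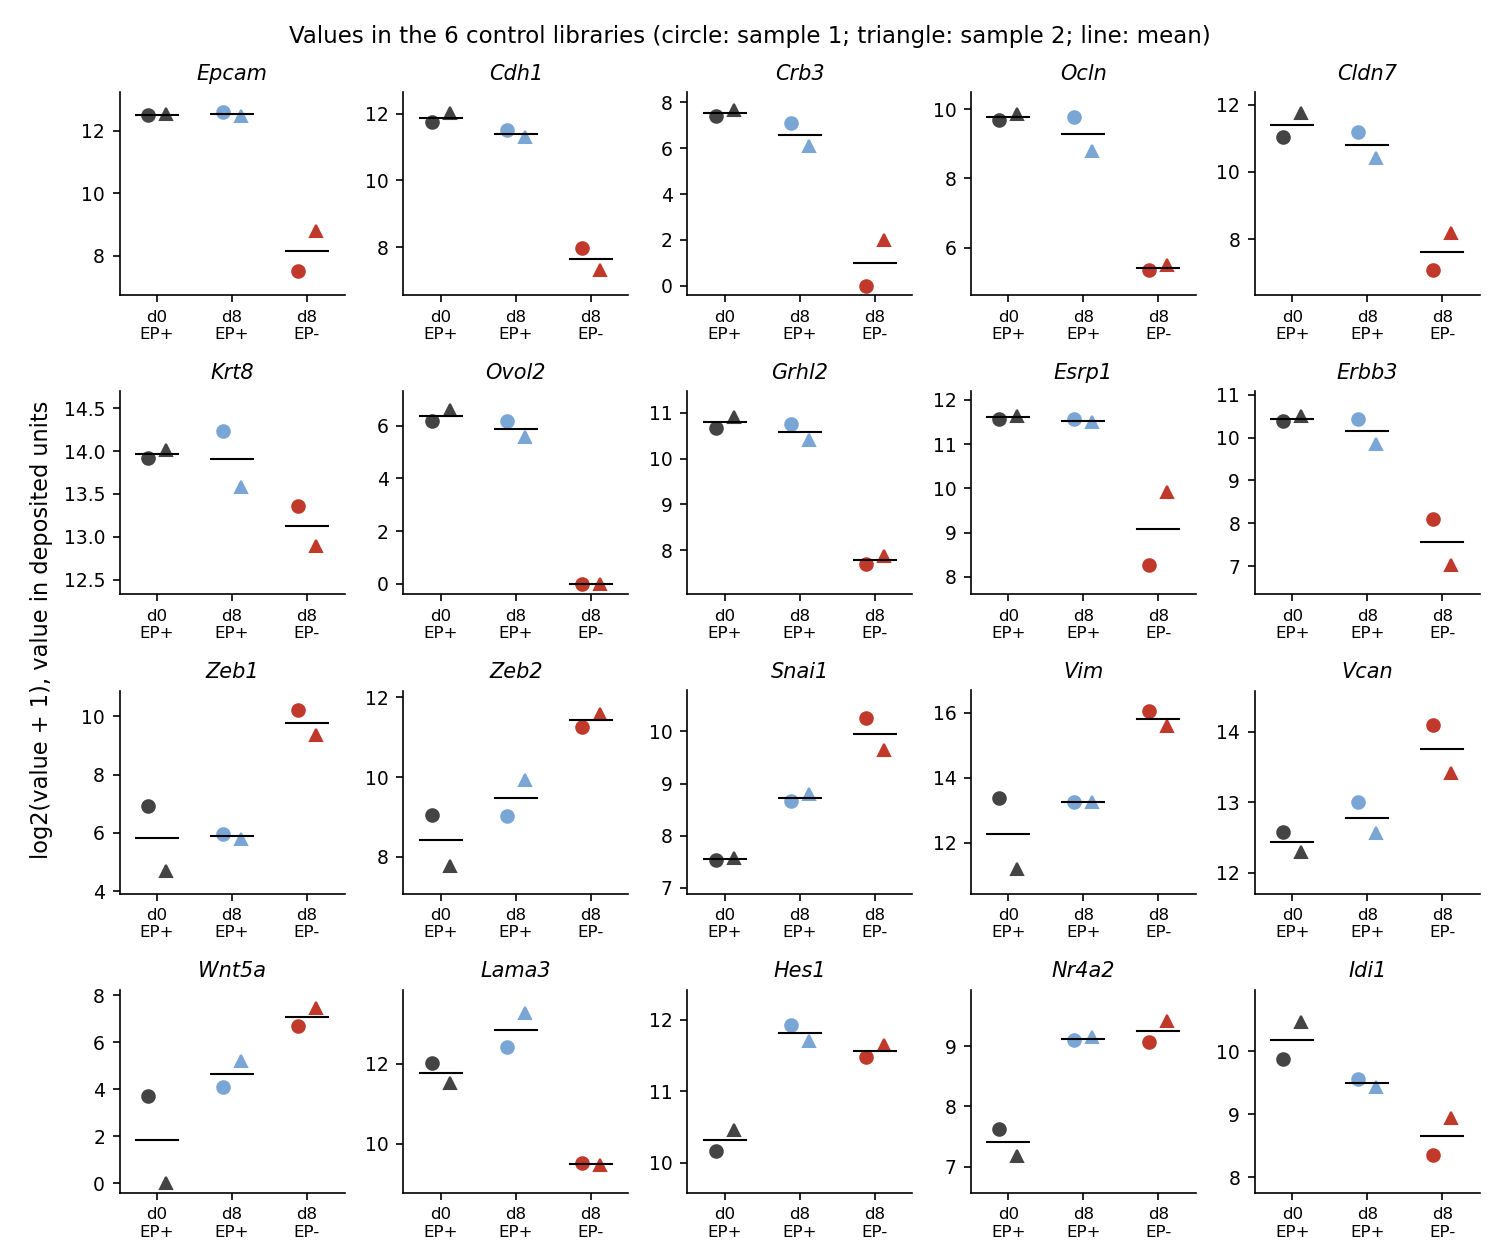
Values of 20 genes in the 6 control libraries, as log2(value + 1), for day 0 EPCAM+, day 8 EPCAM+ and day 8 EPCAM- cells. Circles are sample 1, triangles sample 2 and lines the mean of the pair; each panel has its own axis, which need not start at 0. Cdh1, Crb3, Ocln, Ovol2 and Grhl2 are low in day 8 EPCAM- cells alone, whereas Hes1 and Nr4a2 stand as high in day 8 EPCAM+ as in day 8 EPCAM- cells.

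Cell junction genes fell, but not evenly. Of 18 tight junction genes tested, 7 fell and 0 rose, with a list median log2 of -1.45 against 0.04 over all genes. Ocln, which encodes the strand protein occludin, held 830 and 934 units at day 0 and 40 and 44 in EPCAM- cells, a 21.0-fold fall (log2 -4.36, adjusted p 0.000178). Cldn7 fell 13.0-fold from 2094 and 3424 units to 134 and 292 (adjusted p 0.000497), and Marveld2, a tricellulin of three-cell contacts, 7.99-fold from 920 and 846 units to 92 and 129 (adjusted p 0.000443). All 3 were robust calls. Cldn4 fell from 4350 and 6127 units to 95 and 1069, the EPCAM- samples standing far apart, and its call was lost without day 0 replicate 2 (adjusted p 0.104) or day 8 EPCAM- replicate 1 (0.111). The cytoplasmic scaffold Tjp1 (ZO-1) did not move with its membrane partners: it read 11554 and 9520 units at day 0 and 11550 and 9259 in EPCAM- cells (log2 -0.02, adjusted p 0.979). Cxadr, another junction receptor, was at log2 0.00 (adjusted p 1), so the list's low median does not describe every member.

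Adherens junctions and desmosomes also changed in part. Of 15 genes tested 3 fell (Cdh1, Pkp3 and Dsp) and 0 rose, with a median log2 of -0.71. Dsp, the desmosomal plakin that anchors keratin, fell 6.13-fold from 4474 and 2750 units to 682 and 496 (adjusted p 0.0119, 0.0661 without day 0 replicate 1 and 0.111 without day 8 EPCAM- replicate 2). Pkp3, a desmosomal plakophilin, fell 10.1-fold from 1234 and 1807 units to 140 and 161 (adjusted p 0.00653, 0.0649 without day 0 replicate 2 and 0.0519 without day 8 EPCAM- replicate 1). The catenins that link cadherins to actin stayed near their day 0 level. Ctnnb1 read 10048 and 8303 units at day 0 and 8202 and 9112 in EPCAM- cells (log2 -0.08, adjusted p 0.865), and Ctnna1 11537 and 12077 against 9749 and 9938 (log2 -0.26, adjusted p 0.360). P-cadherin (Cdh3) was at 3661 and 3528 units against 2642 and 1821 (adjusted p 0.283). With the block 6 of the 15 fell.

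Apical polarity and trafficking genes held the largest number of calls of any list: 11 of 18 fell, 0 rose, and the median log2 was -1.81. Without single libraries 8 to 10 of the 18 fell. Crb3, the Crumbs protein that specifies the apical membrane, had 169 and 202 units at day 0 and 0 and 3 in EPCAM- cells, which is at most 1 read per library there (log2 -6.54, adjusted p 0.000178). Prom2, a prominin of membrane protrusions, fell from 645 and 464 units to 9 and 5 (log2 -6.14, adjusted p 0.00117). Mal2, a protein of apical transcytosis, fell 51.9-fold from 917 and 1261 units to 23 and 19 (adjusted p 0.000426). Rab25, an epithelial GTPase of apical recycling, fell 60.9-fold from 606 and 916 units to 20 and 5 (adjusted p 0.00662, 0.0538 without day 0 replicate 2 and 0.0818 without day 8 EPCAM- replicate 2). The other called falls of the list included Pard6b, Patj and Prkcz, polarity proteins of the apical domain (log2 -2.17, -1.43 and -1.37), named after their values were seen. Pard3, a polarity scaffold of tight junctions, was not called, at 2139 and 2039 units against 2383 and 2463 (log2 0.21, adjusted p 0.668), and neither was Prkci, an atypical protein kinase C, at 2520 and 3128 against 2263 and 2883 (log2 -0.14).

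Of 6 genes for EPCAM partners and membrane serine proteases 5 fell and 0 rose (median log2 -2.53). St14, the protease matriptase, fell from 2943 and 3821 units to 43 and 409 (log2 -4.64, adjusted p 0.00958). Its call was lost without day 0 replicate 2 (adjusted p 0.0637) or day 8 EPCAM- replicate 1 (0.0763). Spint1 and Prss8, an inhibitor and a partner protease, fell 6.02-fold and 5.11-fold. Prss8 held 87 and 92 units at day 0, 55 and 33 in day 8 EPCAM+ and 18 and 17 in EPCAM- cells. Without day 0 replicate 2, and likewise without day 8 EPCAM- replicate 1, only 1 of the 6 was called.

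All 4 simple keratins tested fell, by very different amounts. Krt7 went from 3734 and 6625 units to 476 and 377 (12.1-fold, adjusted p 0.00724) and Krt19 from 889 and 1078 to 231 and 113 (5.72-fold, adjusted p 0.00355). Their day 8 EPCAM+ values were 3955 and 1860 units for Krt7 and 658 and 252 for Krt19. Krt18 fell 2.09-fold from 12972 and 12398 units to 6760 and 5389, and Krt8 1.77-fold from 15486 and 16544 to 10510 and 7622 (adjusted p 0.0344). EPCAM- cells thus kept high levels of the Krt8 and Krt18 pair. Without day 0 replicate 2, or without day 8 EPCAM- replicate 2, 0 of the 4 were called by limma, against 4 of 4 both with voom and at an unadjusted p below 0.05 in the full data. The 7 basal and stress keratins had 0 calls with limma and 0 with voom, with 1 at an unadjusted p below 0.05. Their median log2 was -2.17, with 6 of the 7 negative. That median was -0.24 between the sample 1 libraries and -3.0 between the sample 2 libraries. Sample 2 was the lower of each pair for Krt14, which held 7128 and 5059 units at day 0, 12774 and 2006 in day 8 EPCAM+ and 6797 and 2112 in EPCAM- cells.

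Of 14 epithelial transcription factors tested 4 fell and 0 rose (median log2 -1.18). Ovol2, a zinc finger repressor of Zeb1, had 71 and 95 units at day 0 and 0 and 0 in EPCAM- cells, a fall of at least 10.8-fold at the limit that 3 reads per library allow (adjusted p 0.000239). Ovol1 fell 11.2-fold from 135 and 223 units to 18 and 14 (adjusted p 0.00344, and 0.0663 without day 0 replicate 2). Grhl2, an activator of junction genes, fell 8.11-fold from 1626 and 1926 units to 206 and 232 (adjusted p 0.00352). Ovol2 and Grhl2 were robust calls. Lineage factors of the same list held their level. Pitx1 read 5494 and 5456 units at day 0 and 6438 and 5668 in EPCAM- cells (log2 0.14, adjusted p 0.819), Klf5 2613 and 1535 against 2941 and 1803 (log2 0.20), and Tfap2a 1391 and 1599 against 1405 and 1303 (log2 -0.14). Pitx1 and Klf5 are among the genes knocked out in the other lines.

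Among 9 splicing regulators the 3 epithelial ones fell and the other 6 were not called. Esrp1 fell 4.90-fold from 3058 and 3165 units to 308 and 961 (adjusted p 0.00106), Esrp2 3.61-fold from 785 and 1026 to 231 and 271 (adjusted p 0.00183, and 0.0507 without day 0 replicate 2), and Rbm47 4.63-fold from 1248 and 1282 to 271 and 276 (adjusted p 0.000432). Rbfox2, known for promoting mesenchymal exons, was at 2896 and 2530 units at day 0 and 4041 and 3983 in EPCAM- cells (log2 0.57, adjusted p 0.0727, and 0.0146 with the block).

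The promoters of the genes that fell were searched for the E-box bound by ZEB and SNAI proteins, CAGGTG, whose reverse complement is CACCTG, on both strands. RefSeq windows (GRCm38.p6) of 300 bases, 250 before to 50 after a start site, were matched to 10956 of the 19569 genes tested, among them 164 of the 259 that fell and 80 of the 134 that rose. The upstream 250 bases of 6 genes that fell are shown because they hold at least 2 such boxes each. They are written 5′ to 3′ along the gene's strand, ending at the base before the start site, with the E-boxes in capitals. Ap1m2, a clathrin adaptor subunit of epithelial basolateral sorting (157 and 269 units at day 0, 12 and 3 in EPCAM- cells), was added after its values and its window were seen.
Crb3 (chr17:57061951-57062200, plus strand): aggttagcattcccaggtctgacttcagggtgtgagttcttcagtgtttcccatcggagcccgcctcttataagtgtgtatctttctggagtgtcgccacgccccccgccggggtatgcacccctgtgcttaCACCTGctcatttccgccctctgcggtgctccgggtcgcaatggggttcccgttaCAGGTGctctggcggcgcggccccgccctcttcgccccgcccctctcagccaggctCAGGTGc
Ap1m2 (chr9:21312334-21312583, minus strand): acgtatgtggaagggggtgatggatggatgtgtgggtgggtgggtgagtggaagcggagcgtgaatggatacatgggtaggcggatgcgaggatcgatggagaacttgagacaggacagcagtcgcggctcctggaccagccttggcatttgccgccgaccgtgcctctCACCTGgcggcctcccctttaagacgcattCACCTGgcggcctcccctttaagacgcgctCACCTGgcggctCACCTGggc
Rab25 (chr3:88548280-88548529, minus strand): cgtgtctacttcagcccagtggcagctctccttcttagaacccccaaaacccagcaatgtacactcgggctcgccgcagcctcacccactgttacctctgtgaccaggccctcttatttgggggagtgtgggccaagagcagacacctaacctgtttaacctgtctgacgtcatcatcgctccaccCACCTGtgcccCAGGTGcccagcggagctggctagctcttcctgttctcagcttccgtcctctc
Cldn7 (chr11:69965171-69965420, plus strand): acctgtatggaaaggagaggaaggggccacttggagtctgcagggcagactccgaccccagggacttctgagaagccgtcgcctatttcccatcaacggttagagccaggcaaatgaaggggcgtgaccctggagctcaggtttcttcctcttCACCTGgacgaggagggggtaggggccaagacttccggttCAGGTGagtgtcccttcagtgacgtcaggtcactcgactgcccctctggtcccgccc
Ocln (chr13:100552499-100552748, minus strand): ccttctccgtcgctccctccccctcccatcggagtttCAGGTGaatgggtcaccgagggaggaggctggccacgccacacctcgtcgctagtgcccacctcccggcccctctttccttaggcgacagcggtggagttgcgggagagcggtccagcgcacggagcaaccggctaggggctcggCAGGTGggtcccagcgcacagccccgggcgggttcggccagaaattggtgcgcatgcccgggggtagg
Epcam (chr17:87635729-87635978, plus strand): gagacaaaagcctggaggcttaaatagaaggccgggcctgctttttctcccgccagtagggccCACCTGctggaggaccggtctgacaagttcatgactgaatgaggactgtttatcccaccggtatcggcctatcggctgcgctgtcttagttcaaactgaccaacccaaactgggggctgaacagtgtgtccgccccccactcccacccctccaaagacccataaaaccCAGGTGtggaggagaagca

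Counted from the start site, the first bases of the Crb3 boxes are at -118, -63 and -7, those of Ap1m2 at -81, -51, -21 and -9, and those of Rab25 at -64 and -53. The Cldn7 boxes begin at -97 and -57, the Ocln boxes at -213 and -68 and the Epcam boxes at -187 and -19. Crb3, Cldn7 and Ocln each had 2 windows. The Crb3 window not shown has its upstream bases at chr17:57061981-57062230 and overlaps the one shown. Its 3 upstream boxes begin at -148, -93 and -37 from its own start site. The Cldn7 window not shown held 0 boxes, and the Ocln window not shown held 1, with 0 upstream of its start site. Of 37 called falls in the 7 lists of epithelial genes, 22 had a window and 16 of these held the box in at least 1 window. Vim had 1 window and Zeb2 had 4, none with the box, and the single Snai1 window held 1.

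Over all windows of the genes that fell, 91 of 210 (43.3%) held the box, against 2623 of 13940 (18.8%) for all genes tested and 12 of 105 (11.4%) for genes that rose. At least 2 boxes stood in 15.7% of windows of genes that fell, in 2.63% of all and in 1.9% for genes that rose. Counted by gene, 79 of 164 genes that fell (48.2%) and 2374 of 10956 of all (21.7%) had it. The windows of the 3 sets were close in base composition, with median GC contents of 61.7%, 60.3% and 59.7% for genes that fell, all genes and genes that rose. Other E-boxes were chosen for comparison after the first count was seen. CAGCTG was in 16.2% of windows of genes that fell and 15.5% of all, CACGTG in 9.52% and 9.38%, and CATCTG (or CAGATG) in 11% and 12%. Overlaps between hexamers were kept, and windows of 1 gene can share bases. No test was made, and a match is a stretch of letters, not a bound site.

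**Figure D3:**
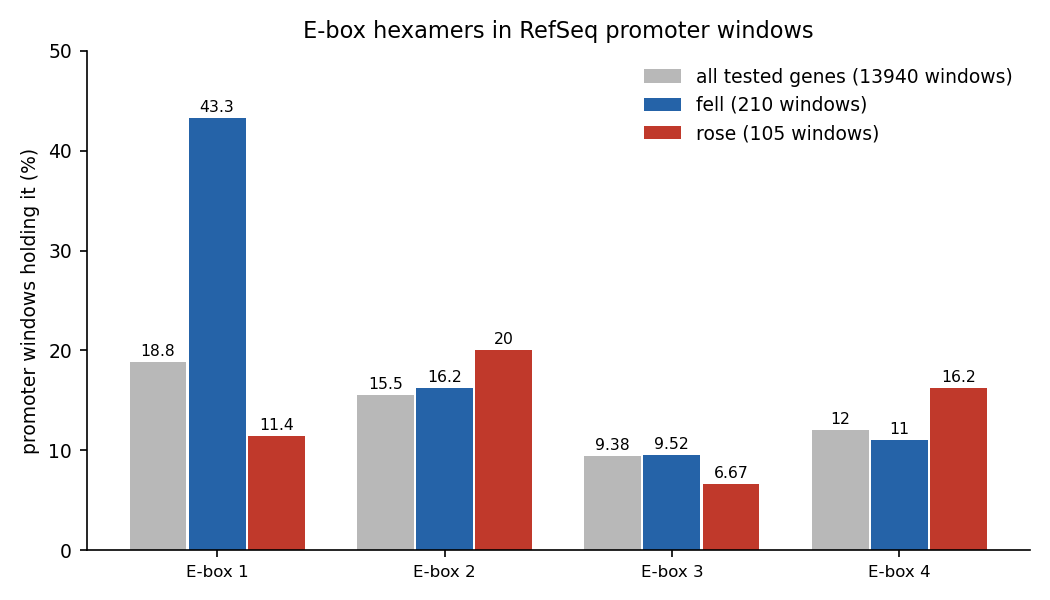
Share of RefSeq promoter windows (percent, bars from 0) that hold an E-box hexamer on either strand, for all genes tested, genes that fell and genes that rose. E-box 1 is CAGGTG, 2 is CAGCTG, 3 is CACGTG and 4 is CATCTG. E-box 1 is in 43.3% of windows of genes that fell against 18.8% of all; E-box 2 is in 16.2% against 15.5%, E-box 3 in 9.52% against 9.38% and E-box 4 in 11% against 12%.

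Of 13 EMT transcription factors 4 rose (Zeb1, Zeb2, Snai1 and Prrx1) and 0 fell, with a median log2 of 1.06; with the block 6 rose. Zeb2, the second ZEB repressor, held 530 and 217 units at day 0 and 2463 and 3061 in EPCAM- cells, a 7.40-fold rise (log2 3.01, adjusted p 0.00699, 0.0753 without day 0 replicate 2 and 0.0624 without day 8 EPCAM- replicate 2). Snai1 held 183 and 190 units at day 0 and 1217 and 798 in EPCAM- cells. It rose 5.40-fold (adjusted p 0.0253, voom 0.0764), and its call was lost without any 1 of the 4 samples (0.0729 to 0.155). Prrx1, a homeobox factor of mesenchyme, rose 1.76-fold from 2529 and 2460 units to 4150 and 4650 (adjusted p 0.0255), a call also lost without any 1 sample. In day 8 EPCAM+ cells Snai1 was between the other groups, at 402 and 447 units, and Zeb2 was at 515 and 975 units, between them in sample 2 only. Twist1 read 124 and 129 units at day 0 and 240 and 136 in EPCAM- cells (log2 0.51, adjusted p 0.488). Snai2 read 163 and 25 against 314 and 257 (log2 2.13, adjusted p 0.194, and 0.0386 with the block). Sox9, a progenitor factor, was at log2 -0.23 (adjusted p 0.850).

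In the mesenchymal cytoskeleton 3 of 16 genes rose (Vim, Dpysl3 and Fhl1) and 0 fell, with a median log2 of 0.44. Dpysl3, a microtubule-binding protein of growth cones, held 272 and 330 units at day 0 and 1918 and 4843 in EPCAM- cells (log2 3.34, adjusted p 0.0478, and 0.0747 with the block), a call also lost without any 1 sample. In day 8 EPCAM+ cells it was at 220 and 1784 units, so sample 2 was high in both day 8 fractions. Acta2, smooth muscle actin, held 51 and 22 units at day 0 and 243 and 253 in EPCAM- cells (log2 2.85, adjusted p 0.0936), and Tagln 37 and 52 against 92 and 127. Fscn1, an actin bundler, was abundant and level, at 21568 and 27513 units against 19167 and 19767 (log2 -0.32, adjusted p 0.428).

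Among 13 adhesion genes of mesenchymal and intermediate states 1 fell and 0 rose with limma (median log2 0.84), with 6 rises at an unadjusted p below 0.05 and 1 with voom. The fall was Itgb6, the epithelial subunit of a TGF-beta-activating integrin, from 998 and 1215 units to 60 and 60 (18.4-fold, log2 -4.18, adjusted p 1.54e-05), a robust call. N-cadherin (Cdh2) held 1441 and 2173 units at day 0, 1000 and 2109 in day 8 EPCAM+ and 2406 and 4160 in EPCAM- cells (log2 0.84, adjusted p 0.483). Cdh11 held 57 and 7 units against 357 and 340 (log2 4.02, adjusted p 0.128), and Ncam1 3468 and 2609 against 7922 and 7918 (log2 1.40, adjusted p 0.139, and 0.010 with the block). Cd44 and Cd24a, surface proteins used to grade tumour cell states, were level at log2 0.04 and -0.03.

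Of 27 extracellular matrix genes 3 rose (Vcan, Lamc1 and Col1a2) and 0 fell, while 23 had a positive log2 fold change (median 1.03). With the block 5 rose, without day 8 EPCAM- replicate 2 only 1, and without any other of the 4 samples 0. Vcan, the proteoglycan versican, rose 2.56-fold from 6102 and 5020 units to 17509 and 10907 (adjusted p 0.0282, and 0.0617, 0.225 and 0.205 without day 0 replicate 1, day 0 replicate 2 and day 8 EPCAM- replicate 1). Lamc1, a laminin chain, rose from 5659 and 4956 units to 10031 and 9034 (log2 0.85, adjusted p 0.0354). Col1a2 was at 0 and 0 units at day 0 and only 40 and 14 in EPCAM- cells, next to 71 and 9 in day 8 EPCAM+ cells (voom adjusted p 0.208). Fn1, fibronectin, was high in sample 2 throughout: 13787 and 27992 units at day 0, 10840 and 75764 in day 8 EPCAM+ and 41340 and 117057 in EPCAM- cells (log2 1.82, adjusted p 0.239). Col5a1 held 505 and 583 units against 2426 and 2362 (log2 2.14, adjusted p 0.0728). Of 17 matrix proteases and inhibitors 1 rose, Adamts7 (90 and 98 to 217 and 402 units, adjusted p 0.0282, voom 0.072), and 0 fell. Adamts7 lost its call without day 0 replicate 1 or 2 or day 8 EPCAM- replicate 2 (0.115, 0.146 and 0.301).

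**Figure D4:**
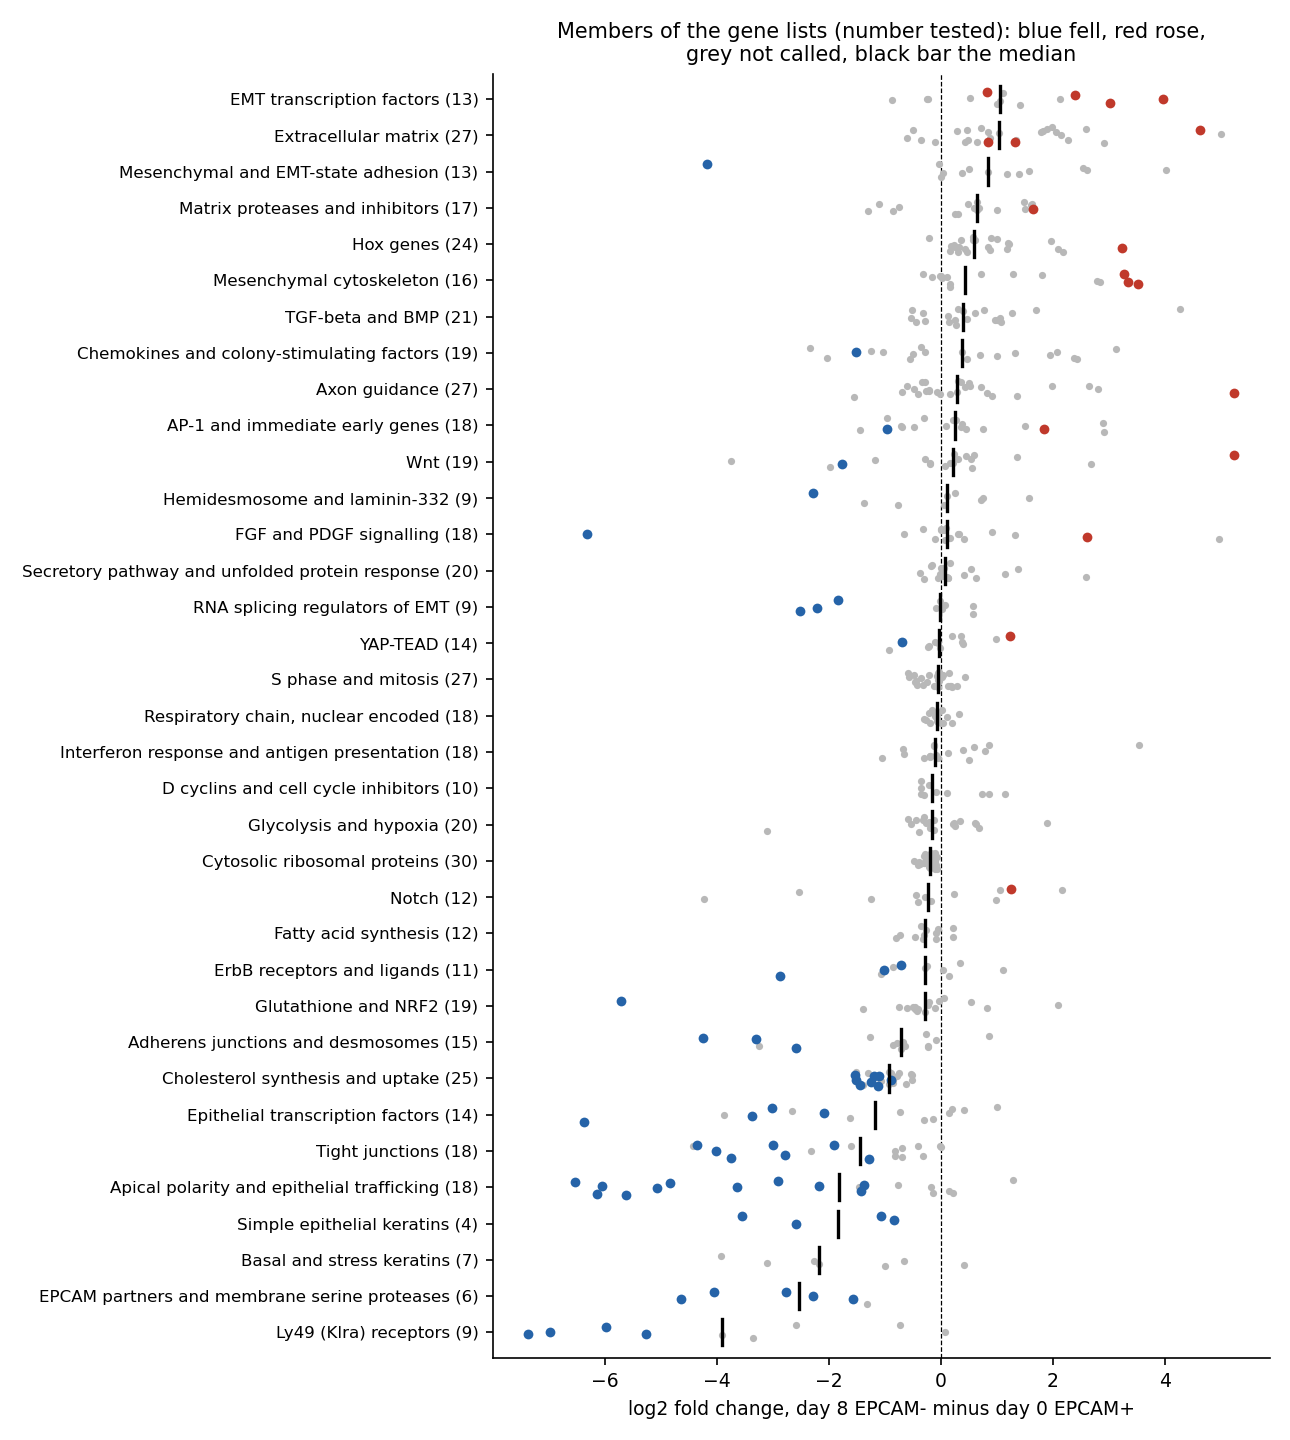
Log2 fold change of each tested member of the gene lists, day 8 EPCAM- minus day 0 EPCAM+, with lists ordered by their median (black bar). Members that fell are blue, those that rose red and those not called grey. The Klra list has the lowest median (-3.90), followed by EPCAM partners (-2.53), and the EMT factor and matrix lists have the highest of those drawn (1.06 and 1.03); the marker lists of other cells are not drawn.

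Basement membrane attachment changed in 1 of 9 genes. Lama3, the alpha chain of laminin-332, held 4129 and 2942 units at day 0, 5531 and 9856 in day 8 EPCAM+ and 727 and 704 in EPCAM- cells. It fell 4.94-fold against day 0 (adjusted p 0.0187, and 0.0549 to 0.111 without any 1 of the samples). Its partner chain Lamb3 was not called and read 3473 and 3540 units at day 0 and 2770 and 6345 in EPCAM- cells.

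Of 11 ErbB genes 3 fell and 0 rose (median log2 -0.29). Erbb3 fell 6.91-fold from 1332 and 1453 units to 274 and 129 (adjusted p 0.000211), a robust call. The ligand Tgfa fell 2.01-fold from 2332 and 1932 units to 1234 and 886, and Erbb2 1.64-fold from 1643 and 1773 to 1129 and 954 (adjusted p 0.0418). Day 8 EPCAM+ cells held 1389 and 1137 units of Erbb2, which was not called between the day 8 fractions. Neither Tgfa nor Erbb2 was a robust call: 2 of the 11 fell without day 8 EPCAM- replicate 1, and 1 without any other of the 4 samples. Egfr was at 155 and 510 units against 117 and 480 and was not called. Among 18 FGF and PDGF genes the ligand Fgf2 rose 6.20-fold from 51 and 68 units to 311 and 427 (adjusted p 0.0301, voom 0.0613). Fgfbp1, a carrier that frees FGFs from the matrix, fell from 583 and 565 units to 12 and 3 (log2 -6.32, adjusted p 0.00814, voom 0.119). Fgf2 lost its call without any 1 sample (0.0855 to 0.205), and Fgfbp1 without day 0 replicate 2 (0.0637) or day 8 EPCAM- replicate 2 (0.0959).

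Among 19 Wnt genes 2 ligands changed in opposite directions. Wnt7a fell 3.45-fold from 704 and 940 units to 223 and 253 (adjusted p 0.0166), and Wnt5a, a ligand known for non-canonical signalling, rose from 12 and 0 units to 103 and 175 (log2 5.23, adjusted p 0.0257, voom 0.0779). Both calls held only without day 0 replicate 1 among the fits lacking 1 sample (0.0731 to 0.174 for Wnt7a and 0.0839 to 0.272 for Wnt5a in the others). Wnt7b was at 4762 and 4577 units against 1029 and 1365 (log2 -1.98, adjusted p 0.0543, and 0.011 with the block). Frizzled receptors were not called, with Fzd2 at 1124 and 1419 units against 1881 and 1569.

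No TGF-beta or BMP gene of 21 was called with limma or voom; 4 rose at an unadjusted p below 0.05, 2 rose with the block, 2 without day 0 replicate 1, and the median log2 was 0.40. Ltbp1, which stores latent TGF-beta in the matrix, held 4429 and 2734 units at day 0 and 8475 and 6097 in EPCAM- cells (log2 1.05, adjusted p 0.0556, and 0.00153 with the block). The inhibitory Smad7 was level at 1845 and 1691 units against 1930 and 1910, and the receptor Tgfbr2 was at 2778 and 2539 against 2713 and 1654. In the axon guidance list of 27 genes Robo2, a SLIT receptor, rose from 0 and 0 units to 109 and 12 (at least 6.89-fold, adjusted p 0.0372, voom 0.0833), a call kept without day 8 EPCAM- replicate 2 alone.

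YAP-TEAD genes showed 1 rise and 1 fall in 14. Wwtr1 encodes TAZ, the transcriptional partner of TEAD factors, and rose 2.36-fold from 1564 and 1645 units to 3357 and 4219 (adjusted p 0.00355, and 0.0577 without day 8 EPCAM- replicate 2). Tead3 fell 1.63-fold from 805 and 730 units to 471 and 473 (adjusted p 0.0445, voom 0.0504, and 0.147 to 0.205 without any 1 sample). Tead3 was at 567 and 572 units in day 8 EPCAM+ cells and was not called between the day 8 fractions. Yap1 stayed at 2913 and 2945 units against 2577 and 3119 (log2 -0.05), and the target genes Cyr61 and Ctgf were not called (log2 -0.02 and -0.71).

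Hes1, Nr4a2 and Klf11 rose, and both of their day 8 EPCAM+ samples also lay above both day 0 samples. There was no call between those groups (limma adjusted p 0.0659 for Hes1, 0.0659 for Nr4a2 and 0.113 for Klf11). Other called rises shared that order, among them Snai1, Hoxb9 and Wwtr1, but both of their EPCAM- samples were higher again. Hes1, a Notch target and repressor, held 1147 and 1410 units at day 0, 3913 and 3322 in day 8 EPCAM+ and 2853 and 3213 in EPCAM- cells (2.37-fold above day 0, adjusted p 0.0103, and 0.0825, 0.0507 and 0.0966 without day 0 replicate 1, day 0 replicate 2 and day 8 EPCAM- replicate 2). The Notch receptors and ligands were not called. Nr4a2, an orphan nuclear receptor induced early by stimuli, held 197 and 144 units at day 0, 549 and 566 in day 8 EPCAM+ and 536 and 686 in EPCAM- cells (3.58-fold, adjusted p 0.00117). Klf11, a zinc finger factor, held 298 and 321 units at day 0, 624 and 804 in day 8 EPCAM+ and 662 and 1057 in EPCAM- cells (2.78-fold, adjusted p 0.0018). Nr4a2 and Klf11 were robust calls against day 0. Their log2 differences between the day 8 fractions were 0.12 and 0.24, and that of Hes1 was -0.25, none of them called. Myc fell 1.95-fold, from 4432 and 5154 units at day 0 to 2471 and 2452, with 3154 and 2810 in day 8 EPCAM+ cells (adjusted p 0.0491, voom 0.053, and 0.0964 to 0.315 without any 1 sample).

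All 25 genes of cholesterol synthesis and uptake had a negative log2 fold change (median -0.93), and 8 fell. In day 8 EPCAM+ cells the median against day 0 was -0.64. Idi1, an isomerase of the mevalonate pathway, held 945 and 1422 units at day 0, 757 and 691 in day 8 EPCAM+ and 328 and 493 in EPCAM- cells (2.88-fold, log2 -1.53, adjusted p 0.00305). Fdps, which makes farnesyl diphosphate, held 1929 and 4025 units, 1350 and 1313, and 850 and 1096 in the same order. Pmvk fell 2.87-fold and Acat2 2.53-fold. The count depended on single libraries: without day 0 replicate 2, and likewise without day 8 EPCAM- replicate 1, 0 of 25 were called, 4 without day 8 EPCAM- replicate 2 and 11 without day 0 replicate 1. In the full data 22 fell at an unadjusted p below 0.05, 6 with voom and 15 with the block. Summed over the list, day 0 replicate 2 held 64404 units and day 0 replicate 1 43130, against 24638 and 29808 in EPCAM- cells. The 12 fatty acid synthesis genes had 0 calls with limma and 0 with voom, and 1 at an unadjusted p below 0.05 (median log2 -0.29).

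Growth and housekeeping programmes differed little. Of 27 S phase and mitosis genes 0 were called with limma, 0 with voom and 0 at an unadjusted p below 0.05, with a median log2 of -0.06. Mki67, a marker of cycling cells, read 10284 and 9240 units at day 0 and 14716 and 11834 in EPCAM- cells (log2 0.44, adjusted p 0.691). Ccnd1 read 17131 and 16611 units against 14303 and 13079. The 18 nuclear respiratory chain genes (median -0.07) had 0 calls by limma, voom and unadjusted p. The 20 glycolysis and hypoxia genes (median -0.16) had 0 with limma and voom and 4 unadjusted, the 20 secretory and unfolded protein response genes (0.08) 0 and 2, and the 18 interferon and antigen presentation genes (-0.11) 0 and 2. All 30 ribosomal protein genes were negative by a median of -0.19, none called with limma or voom and 2 at an unadjusted p. Their median was 0.00 between the sample 1 libraries and -0.37 between the sample 2 libraries.

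Natural killer receptor genes of the Ly49 family (Klra), a cluster of close copies on chromosome 6, had 4 falls among 9 members tested and 0 rises. Klra9 held 152 and 177 units at day 0 and 0 and 0 in EPCAM- cells, at least 21.3-fold lower (adjusted p 0.000137), a robust call. Klra8 held 323 and 342 against 6 and 0, Klra3 59 and 65 against 0 and 0 and Klra10 45 and 31 against 0 and 0. In day 8 EPCAM+ cells Klra9 was at 178 and 76 units and Klra8 at 303 and 109. Reads of such copies may be split between them by counting, so the family rather than a member is described: the list sum was 743 and 717 units at day 0 and 39 and 23 in EPCAM- cells. The list median log2 was -3.90, or -2.30 with genes at 0 set to their bound. Without day 0 replicate 2 only 1 of the 9 fell, without day 8 EPCAM- replicate 2 it was 2, and with voom 3. Of the 8 leukocyte markers Adgre1, Cd3e, Itgam and Tyrobp were at 0 in all 4 samples, Ptprc was at 0 and 0 units at day 0 and 9 and 5 in EPCAM- cells, and Csf1r was at 118 and 202 units and then 126 and 133. The part of leukocytes in the Klra values was not tested.

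Of 24 Hox genes tested 23 had a positive log2 fold change (median 0.59), and 1 was called. Hoxb9, a posterior homeobox gene, held 59 and 92 units at day 0, 131 and 423 in day 8 EPCAM+ and 590 and 840 in EPCAM- cells (9.47-fold, adjusted p 0.0209, and 0.0746 to 0.169 without any 1 of the samples). Its neighbours Hoxb8, Hoxb7 and Hoxb6 were at log2 2.09, 1.97 and 2.19 without a call (adjusted p 0.206, 0.189 and 0.0544). Groups that do not overlap were found for 17 of the 24 Hox genes , and for 8294 (42.4%) of all genes tested.

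Outside the lists, the largest falls by log2 with both groups apart were Atp8b1, a phospholipid flippase (121 and 168 units at day 0, 0 and 0 in EPCAM- cells, at least 18.7-fold), and Ppp2r2c, a phosphatase regulatory subunit (93 and 110 units, then 0 and 0, at least 13.2-fold). Myh14, a non-muscle myosin heavy chain, held 1904 and 2441 units at day 0, 1214 and 163 in day 8 EPCAM+ and 106 and 10 in EPCAM- cells (37.5-fold, adjusted p 0.00331). These were robust calls. S100a14, Gpx2 and Psapl1 also fell by log2 -5.62 to -6.36, but none was called with voom. Of these, Gpx2 does belong to a list: it was the 1 fall among 19 glutathione and NRF2 genes tested, of which 0 rose. In units, the largest falls among called genes were those of Anxa1, a calcium-dependent membrane binder (18008 and 14729 to 8128 and 7441 units), and Ly6e (19110 and 14250 to 10279 and 8958), at 2.10-fold and 1.73-fold. Anxa1 lost its call without any 1 sample (0.0753 to 0.156), and Ly6e kept it without day 0 replicate 2 alone.

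Among called genes, the largest rise in units after Vim was that of Lrp1, an endocytic receptor, from 10267 and 11476 units to 34301 and 42025 (3.51-fold, adjusted p 0.0239, and 0.077 to 0.183 without any 1 sample). Flrt2, a FLRT adhesion protein, rose 4.17-fold from 2658 and 2704 units to 11735 and 10651 (limma adjusted p 0.0428, voom 0.0585). Ank, a transporter that exports pyrophosphate, rose 5.85-fold from 1379 and 718 to 6412 and 5856 (limma adjusted p 0.0195). Neither Flrt2 nor Ank was a robust call. Of the 8 robust rises Lix1l held 129 and 116 units against 702 and 581 (5.24-fold, adjusted p 0.0018), and the protocadherin Pcdh18 959 and 1108 against 2434 and 2465 (2.37-fold). Col23a1 and Ms4a4d were at 0 at day 0 and at 23 and 33 and at 43 and 28 units in EPCAM- cells. Mef2c, a muscle and neural crest factor, was at 0 and 0 units at day 0 and 92 and 33 in EPCAM- cells (0.0616 without day 8 EPCAM- replicate 1). Some units were also present in day 8 EPCAM+ cells: 8 and 11 for Col23a1, 14 and 9 for Ms4a4d and 8 and 28 for Mef2c. None of these genes was called between the day 8 fractions (limma adjusted p 0.501, 0.814 and 0.805). Mir5129 rose by log2 3.04, but its position (chr2:45023100-45023177) lies inside Zeb2, so reads of the microRNA gene and its host may not be told apart.

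The day 8 EPCAM+ cells of the control line differed less from day 0. With limma 0 of 19569 genes were called between them (0%), 0 with voom, 2 with the block, and 831 at an unadjusted p below 0.05. Between the day 8 fractions 126 genes were called (0.644%), 224 with the block. These contrasts share samples with the main one, so only the values of each gene are set beside each other. For the tight junction list the median log2 against day 0 was -0.07 in day 8 EPCAM+ and -1.45 in EPCAM- cells, and for EMT factors 0.14 and 1.06. For Lama3 the values were 1.08 and -2.28. For cholesterol genes they were -0.64 and -0.93. The difference between time and sort was not tested as an interaction, because no EPCAM- sample of day 0 is analysed here.

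The 8 EPCAM- libraries of the knockout lines, which are other samples, are given for comparison. Cdh1 ranged from 130 to 523 units in them (median 254.5) and Itgb6 from 25 to 80 (median 40.5), next to 251 and 156 and to 60 and 60 in the control EPCAM- cells. Ovol2 ranged from 0 to 3 units and Klra9 from 0 to 9. Vim ranged from 30486 to 52675 units (median 45640) and Zeb2 from 2374 to 4258. Zeb1 ranged from 78 to 960 units (median 485), so its low end lay within the day 0 values of the control (121 and 25). Cldn4 was at 910 to 2398 units in the knockout EPCAM- libraries, beside 95 and 1069 in the control, and Hoxb9 at 3 to 330, all below 590 and 840. No test was made against these lines.

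**Figure D5:**
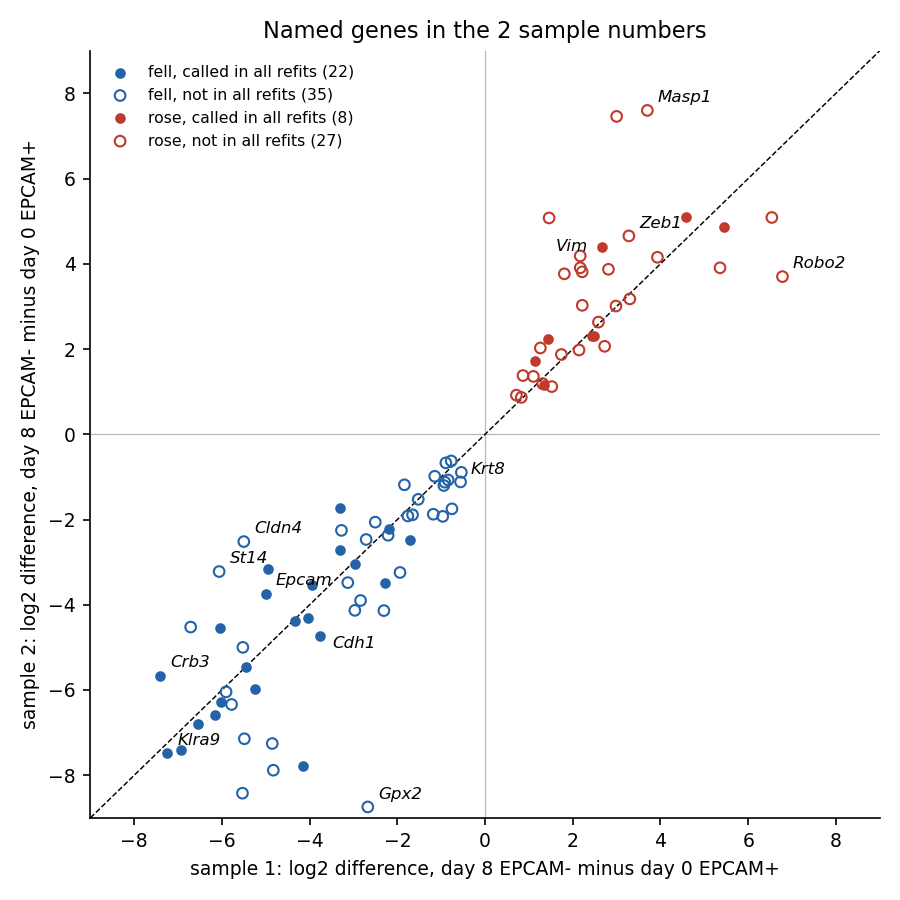
Log2 difference between day 8 EPCAM- and day 0 EPCAM+ in sample 1 (horizontal) and sample 2 (vertical) for the 92 named genes; blue fell, red rose, filled symbols are the robust calls. The dashed line marks equal differences. All named genes have the same sign in both samples, which follows from groups that do not overlap. St14 and Cldn4 differ more in sample 1, and Gpx2 and Masp1 more in sample 2.

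Markers of other cells were also read. Summed over 7 fibroblast markers, the units were 94 and 22 at day 0, 247 and 84 in day 8 EPCAM+ and 1103 and 242 in EPCAM- cells. Col3a1 made up most of it, at 57 and 0 units at day 0 and 1001 and 58 in EPCAM- cells. Pdgfrb was at 0 and 0 units against 15 and 60, Pdgfra at 37 and 22 against 43 and 124, and Dcn, Lum, Dpt and Thy1 were at 0 at day 0 and at 35 or under in EPCAM- cells. With limma 0 of the 4 fibroblast markers tested were called, 0 with voom, 2 at an unadjusted p below 0.05 and 2 with the block. All 4 had a positive log2 fold change, with a median of 3.78, or 1.71 with genes at 0 set to their bound. Sums of 8 leukocyte markers (121 and 206 units, then 147 and 141), 6 endothelial markers (127 and 84, then 204 and 96) and 4 melanocyte markers (43 and 10, then 40 and 22) overlapped between the groups. Tek and Emcn were at 0 in all 4 samples, as were Dct and Tyr. The part of such cells in the results was not tested.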

How the data were processed

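RNA of sorted cells was extracted with the RNeasy micro kit, made into Ovation Solo libraries and sequenced paired end, per the labels' protocols. FastQC, Trimmomatic, STAR, Picard and HTSeq and the build GRCm38 (mm10) are named per the submitters' processing notes; versions, annotation and strand setting are not given in the sources used here. The deposited values are normalised counts that the authors scaled to about the same total per library and rounded to whole numbers, so they were treated as a score and not as raw counts. Reads were recovered from the step that 1 read takes in each library. A further allele of the genotype and some genes are not reported here.

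Genes with at least 10 units in at least 2 libraries were tested (19569). Values were taken as log2(value + 1) and fitted with limma 3.58.1 (R 4.3.3, trended, robust prior) over all 22 libraries. The fit had 1 mean for each of 11 groups and 11 residual degrees of freedom. The added 1 unit is less than 1 read, so log2 changes of genes at or near 0 depend on it. For genes at 0 in 1 group they can exceed the bound that 3 reads per library allow. Over the genes that rose the median log2 fold change was 2.37, and 1.52 with such genes set to that bound. Benjamini-Hochberg adjustment ran over all genes tested. A fold divides the higher group mean by the lower, both in deposited units; against a group at 0 they are lower bounds at 3 reads per library, which cover counting error only. The sample number stands in the labels' batch tag. Differences between the 2 samples of a group correlated across genes at r = 0.147 between day 0 EPCAM+ and day 8 EPCAM- cells, 0.18 between day 0 and day 8 EPCAM+ cells and 0.381 between the day 8 fractions; a fit with that number as a block is an alternative. The other alternatives were only the 2 groups compared, median-of-ratios scaling, voom on the recovered reads, a pseudocount of 5, no filter, a filter of 50 units, a prior without the robust option, and leaving out each sample. The scripts were tested on simulated data. Tables and figures used Python 3.11.15, pandas 2.3.3 and matplotlib 3.10.9.

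Named genes were Zeb1, Vim, Cdh1 and Epcam, the called genes with the largest changes on the log2 scale and in units, the robust calls with the largest changes, and up to 4 called members of each list in each direction; list members without a call are given with values. The members and lists were chosen with earlier results of these data known.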

Additional observations from a re-analysis of the deposited data

How the results depend on the processing

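Between day 8 EPCAM- and day 0 EPCAM+ cells 393 genes were called, 843 with the replicate block, 161 with only the 2 groups compared and 885 with both together. Leaving out 1 sample gave 98 to 304. The counts with scaling, voom, pseudocount, filter and prior changed ran from 293 to 438. Between day 8 and day 0 EPCAM+ cells 0 genes were called by limma and 2 with the replicate block; leaving out 1 sample gave 0 to 3. Between the day 8 fractions 126 genes were called, 224 with the block, 14 with only those groups and 925 with both together. Leaving out 1 sample gave 32 to 177. The cause of these shifts was not tested. Of the 92 named genes, all kept their direction in every alternative that tested them. That is no support, since the named genes were chosen as called genes whose groups do not overlap in these data. Refits with the block, with only the 2 groups, or with another filter or prior return the same log2 fold change. A fit without 1 sample cannot reverse the direction where groups do not overlap. The call was lost for 57 without day 0 replicate 2, 49 without day 8 EPCAM- replicate 2, 39 without day 8 EPCAM- replicate 1, 30 without day 0 replicate 1, 22 with voom, 42 with only the 2 groups compared, 11 with those groups and the block, and 1 (Dpysl3) with the block alone. A fit without 1 sample assumes that the lone sample of its group varies like the other groups. One read is worth 2.29 to 3.05 units, so values under about 10 units rest on a few reads.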

Other observations

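Cxcl16, a transmembrane chemokine, was the called gene of 19 chemokine and colony-stimulating factor genes. It held 3288 and 4361 units at day 0, 3709 and 2886 in day 8 EPCAM+ and 918 and 1917 in day 8 EPCAM- cells, and fell 2.70-fold. Slc25a48, a mitochondrial carrier, held 7257 and 7091 units at day 0 and 1465 and 402 in EPCAM- cells. Mdfi, an inhibitor of myogenic factors, held 43 and 43 units at day 0 and 0 and 0 in EPCAM- cells, a robust call. Chst11, a chondroitin sulfotransferase, held 104 and 92 units at day 0 and 830 and 748 in EPCAM- cells, an 8.05-fold rise.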
